A study of Mus musculus with 8 samples.

Results

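Cdh13 encodes T-cadherin, and its annotated span on the mm10 build runs over chr8:118140017-119324929, 1185 kb in all (NCBI gene ID 12554). Regions that the authors called as differential for 5-hydroxymethylcytosine were assigned to the gene when their midpoint lay in this span extended by 1 kb at both ends. There were 16 such regions of 12594 in all. Of these, 12 came from the list of regions higher in Ogt iKO cells (UP) and 4 from the list of lower regions (DOWN). The gene was selected on these counts, because it held many regions of both directions, so they are a description and were not tested.

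5-hydroxymethylcytosine is made from 5-methylcytosine by the TET dioxygenases, and O-GlcNAc transferase (OGT) is a partner of these enzymes. Bodies of genes and distal regulatory elements carry much of the mark in mouse embryonic stem cells. T-cadherin is an unusual cadherin. It has the extracellular cadherin repeats of the family but is held in the membrane by a GPI anchor, and it lacks the cytoplasmic tail through which classical cadherins bind catenins. It is known as a binding partner of adiponectin and of low-density lipoprotein, and as a guidance and adhesion molecule in vessels and in the nervous system.

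The promoter table used here has no entry for Cdh13 itself, and no genome sequence was used, so the sequences of the 16 regions are not shown. RefSeq promoter windows (250 bases before to 50 after a start, GRCm38.p6) were matched for 2 of the 4 other genes annotated inside the span, both long noncoding RNAs. They are shown because each lies in one of the wide stretches of Cdh13 without any region that are described below. The promoter of Hsbp1, the nearest protein-coding neighbour, is shown beside them because the closest UP region outside Cdh13 lies next to it. Capitals mark CG dinucleotides, the main site of cytosine methylation in mammals; the motif reads the same on both strands.
Gm51555 (chr8:118333820-118334119, minus strand): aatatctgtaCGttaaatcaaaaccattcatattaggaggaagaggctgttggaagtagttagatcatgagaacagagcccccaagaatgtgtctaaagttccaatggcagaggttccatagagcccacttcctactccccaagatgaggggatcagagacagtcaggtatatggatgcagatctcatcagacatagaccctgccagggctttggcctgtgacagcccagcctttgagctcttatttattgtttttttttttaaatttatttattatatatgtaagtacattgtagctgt
Gm31893 (chr8:119057408-119057707, minus strand): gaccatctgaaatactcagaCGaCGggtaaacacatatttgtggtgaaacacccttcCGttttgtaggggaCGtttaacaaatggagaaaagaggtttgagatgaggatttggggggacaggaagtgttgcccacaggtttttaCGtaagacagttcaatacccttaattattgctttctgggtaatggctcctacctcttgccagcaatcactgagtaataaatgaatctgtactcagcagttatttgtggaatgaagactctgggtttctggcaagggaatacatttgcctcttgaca
Hsbp1 (chr8:119344288-119344587, plus strand): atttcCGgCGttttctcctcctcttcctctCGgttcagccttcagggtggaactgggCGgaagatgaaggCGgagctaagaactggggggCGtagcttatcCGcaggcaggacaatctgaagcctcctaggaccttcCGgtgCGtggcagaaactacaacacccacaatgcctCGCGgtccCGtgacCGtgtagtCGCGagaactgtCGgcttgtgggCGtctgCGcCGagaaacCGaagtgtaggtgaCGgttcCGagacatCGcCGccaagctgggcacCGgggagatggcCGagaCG
The window of Gm51555 holds 1 CG and that of Gm31893 holds 5, against 27 in that of Hsbp1. The median over all 32851 promoter windows of the table was 7, and 94.6% of them held at least 1. At least as many CG as in Hsbp1 were found in 15.5% of windows. The windows inside Cdh13 thus lie below the median and that of Hsbp1 well above it. None of these 3 windows overlapped a region of either list. The nearest region was 140109 bases away for Gm51555, 20802 for Gm31893 and 3706 for Hsbp1.

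The regions come from CMS-IP, in which bisulfite turns 5-hydroxymethylcytosine into cytosine 5-methylenesulphonate and an antibody recovers the fragments that carry it. All cells were mouse embryonic stem cells (mESC) of genotype Ogt fl/fl, grown on mitomycin C-treated fibroblast feeders and sorted for viable stem cells. The 8 samples form 4 groups of 2. CMS-IP and input libraries were made from Ogt iKO cells, treated with 4-OHT for 6 days and sorted for YFP, and CMS-IP and input libraries from control cells cultured without 4-OHT. The labels name neither the Cre that 4-OHT activates nor the number of clones, and effects of 4-OHT, of the YFP sort and of Ogt deletion cannot be told apart between these groups. The 2 lists hold positions only, 8578 UP and 4016 DOWN regions. Read depth, fold changes, replicate spread and levels of stem cell markers are therefore unknown, and no difference below carries a p-value.

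Regions of both directions lay near the lower end and in the upper part of Cdh13, and the middle held UP regions only. Read from the lower coordinate, the order was 1 DOWN, 10 UP, 1 DOWN, 2 UP and 2 DOWN regions. The outermost region at either end was DOWN. From the first to the last of the 10 consecutive UP regions was 50.5% of the span, a distance that includes 283 kb without any region. The 12 UP regions themselves made up 10043 bp. The gene table gives no strand or exons for Cdh13, so ends are named by coordinate, and exons, introns and start sites were not separated. The span rests on 1 curated and 3 predicted RefSeq transcripts.

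**Figure D1:**
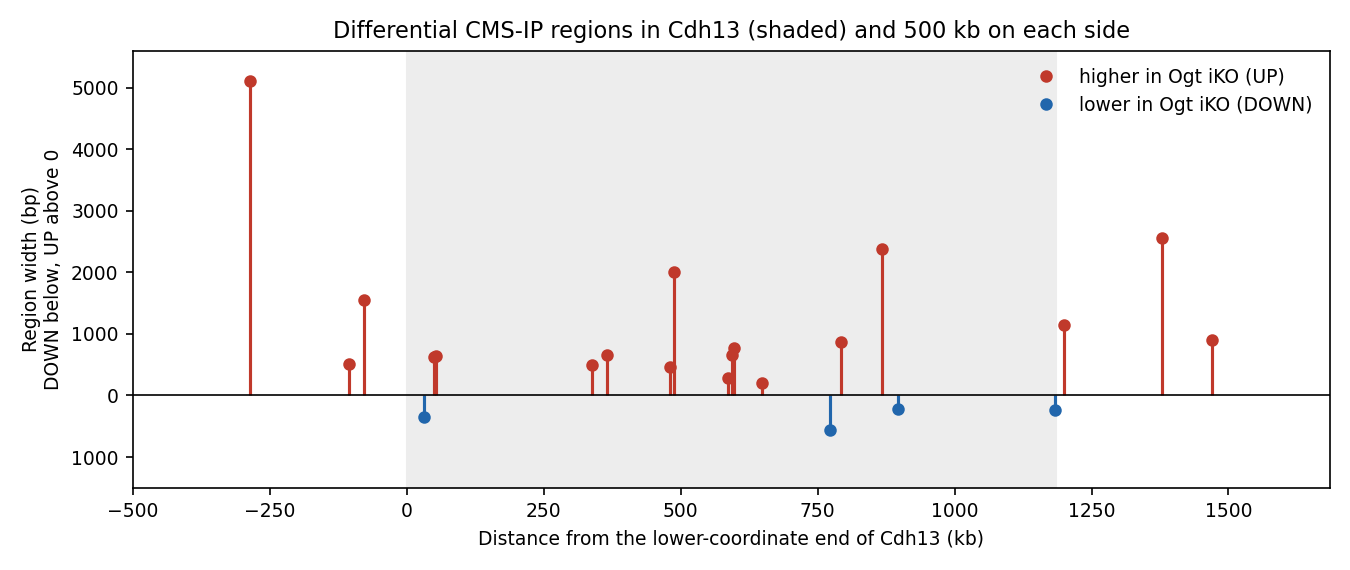
Differential regions in Cdh13 (shaded) and in 500 kb on each side, by distance of the midpoint from the lower-coordinate end of the gene (kb, x axis) and region width (bp, y axis; UP above and DOWN below 0). The 4 DOWN regions all lie in the gene and none exceeds 553 bp, while UP regions lie in the gene (12) and in both flanks (6).

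The lower end of the gene held 3 regions close together. The first, DOWN and 342 bp wide, lay at chr8:118170245-118170586, at 2.57% of the span. After 18.6 kb came a pair of UP regions of 622 and 649 bp, at chr8:118189158-118189779 and chr8:118193062-118193710, only 3.28 kb apart. Both directions thus occurred within 23.5 kb here. A stretch of 283 kb with no region of either list followed, which is 23.9% of the span and contains Gm51555.

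The middle of the gene held UP regions only. The first of them, 495 and 654 bp wide, lay at chr8:118476879-118477373 and chr8:118505460-118506113. Then 6 UP regions fell within 168 kb, between 118619325 and 118787698, a stretch that makes up 14.2% of the span. They formed a pair, a trio and a lone region. The pair consisted of a region of 466 bp at chr8:118619325-118619790 and one of 2001 bp at chr8:118626483-118628483, separated by 6.69 kb. The trio, of 283, 654 and 767 bp, began at chr8:118725170-118725452 and continued at chr8:118732681-118733334 and chr8:118736453-118737219, with gaps of 7.23 and 3.12 kb. The annotated pseudogene Gm22999 lies between the first 2 regions of the trio, and no region of Cdh13 overlapped another annotated gene. The lone region, at chr8:118787499-118787698, had the narrowest width of either list, 200 bp.

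Both directions occurred in the next part. A DOWN region of 553 bp at chr8:118912810-118913362, the widest of the 4, came 125 kb after the last of the 10 UP regions. It was followed at 18.7 kb by an UP region of 875 bp at chr8:118932057-118932931, then by the widest region of the gene, UP and 2377 bp, at chr8:119005781-119008157. A narrow DOWN region of 216 bp at chr8:119036390-119036605 lay 28.2 kb beyond it. The other long stretch without regions, 287 kb or 24.2% of the span, began there and contains Gm31893. The last region of the gene was DOWN and 235 bp wide, at chr8:119323361-119323595, with its midpoint 1.45 kb inside the upper-coordinate end.

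Together the 2 stretches without regions made up 48.1% of the span. Between them, 12 of the 16 regions (10 UP and 2 DOWN) fell in 47.2% of it. Gaps between neighbours ranged from 3.12 to 287 kb with a median of 28.2 kb. In 4 of 15 pairs the gap was under 10 kb, and in all 4 both regions were UP. Neighbours of opposite direction, also 4 pairs, were 18.6 to 125 kb apart. Thus the closest pairs in Cdh13 shared their direction, and regions of opposite direction came no closer than 18.6 kb.

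UP regions in the gene were wider than DOWN regions, in the direction seen over the full lists. The 12 UP regions were 200 to 2377 bp wide with a median of 651.5 bp, against 541.5 bp for the whole UP list. The 4 DOWN regions were 216 to 553 bp wide with a median of 288.5 bp, against 319.5 bp for the whole DOWN list. The UP regions of 2001 and 2377 bp were wider than 93.2% and 95.3% of their list, while the widest DOWN region exceeded 71.1% of its own. Widths in the gene thus spread around the medians of their lists, with 8 of 12 UP and 2 of 4 DOWN regions above them. When regions narrower than 453 bp, the median of the pooled lists, were left out, the gene kept 10 UP regions and 1 DOWN region.

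DOWN regions of Cdh13 all had an UP region nearby, whereas most UP regions were far from any DOWN region. The distance from the 4 DOWN regions to the nearest UP region was 15.8 to 28.2 kb, with a median of 18.6 kb. For the whole DOWN list of 4016 regions the median was 80.2 kb (interquartile range 31.5 to 175 kb). For the 65 DOWN regions in other genes of similar length it was 83.6 kb (19.2 to 216 kb). On chromosome 8 it was 61.8 kb for 197 DOWN regions (23.2 to 175 kb). The distances in Cdh13 thus lay around the lower quartile of these genes and of the chromosome. In the opposite sense, the 12 UP regions of Cdh13 lay 18.6 to 335 kb from the nearest DOWN region. Their median distance was 178 kb, and that of the whole UP list was 166 kb. Cdh13 was selected for its many UP regions, which lie closer together than on chromosome 8 as a whole (values per Mb below), and the part of that density in the short distances was not tested.

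Both flanks of 500 kb held UP regions and no DOWN region. On the lower side there were 3, and 9 genes are annotated there, 3 of them protein-coding. On the upper side there were also 3, among 22 annotated genes of which 15 are protein-coding. The closest regions outside the gene were both UP. That on the upper side, 1151 bp at chr8:119339431-119340581, began 14.5 kb beyond the gene and ended 3956 bases before Hsbp1, which encodes a protein that binds heat shock factor. That on the lower side, 1545 bp at chr8:118061176-118062720, ended 77.3 kb before the gene. The outermost regions inside the span, by contrast, were both DOWN, with midpoints 30.4 kb from its lower end and 1.45 kb from its upper end.

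Farther out, the lower flank held an UP region of 509 bp at chr8:118033823-118034331 and one of 5108 bp at chr8:117850088-117855195. The latter was the 23rd widest of the 8578 UP regions and overlapped no annotated gene. Its nearest annotated gene was Mphosph6, which encodes a phosphoprotein of the RNA exosome, at 48113 bases. In the upper flank, a region of 2559 bp at chr8:119516575-119519133 lay within the span of Mbtps1, the site-1 protease that cleaves membrane-bound transcription factors. The last, 899 bp at chr8:119610047-119610945, lay 1764 bases from Adad2, which encodes a protein with an adenosine deaminase domain. No region of either list had its midpoint in or within 1 kb of the other genes of the flanks, such as Hsd17b2, which encodes a hydroxysteroid dehydrogenase, or Mlycd, which encodes malonyl-CoA decarboxylase.

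Expressed per length, Cdh13 held 10.1 UP and 3.37 DOWN regions per Mb, and its flanks held 6 UP and 0 DOWN per Mb. Chromosome 8, between its first and last annotated gene, held 3.86 and 1.56 per Mb. Within this window UP regions were found in the gene and on both sides of it, and DOWN regions in the gene only. The nearest DOWN regions outside lay 576 kb below the gene (chr8:117562917-117563795, 879 bp) and 950 kb above it (chr8:120275393-120275725, 333 bp). With flanks of 1 Mb on each side, UP regions numbered 8, or 4 per Mb, and DOWN regions 3, or 1.5 per Mb. Absence of a listed region does not show an unchanged level, because neither the tested positions nor their coverage are known.

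Regions of Cdh13 were set beside those of 69 other protein-coding genes of similar length (889 to 1574 kb). In the annotation as a whole, 15.3% of 21774 protein-coding genes held at least 1 UP region, 8.51% at least 1 DOWN region and 3.34% at least 1 of each. Among the 70 genes of similar length, Cdh13 included, these shares were 70.0%, 48.6% and 45.7%. Holding both directions was therefore common at this length, and 31 of the 69 others did so. The other genes held 0 to 16 UP regions with a median of 2, and their median number of DOWN regions was 0. No region at all was found in 19 of them.

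**Figure D2:**
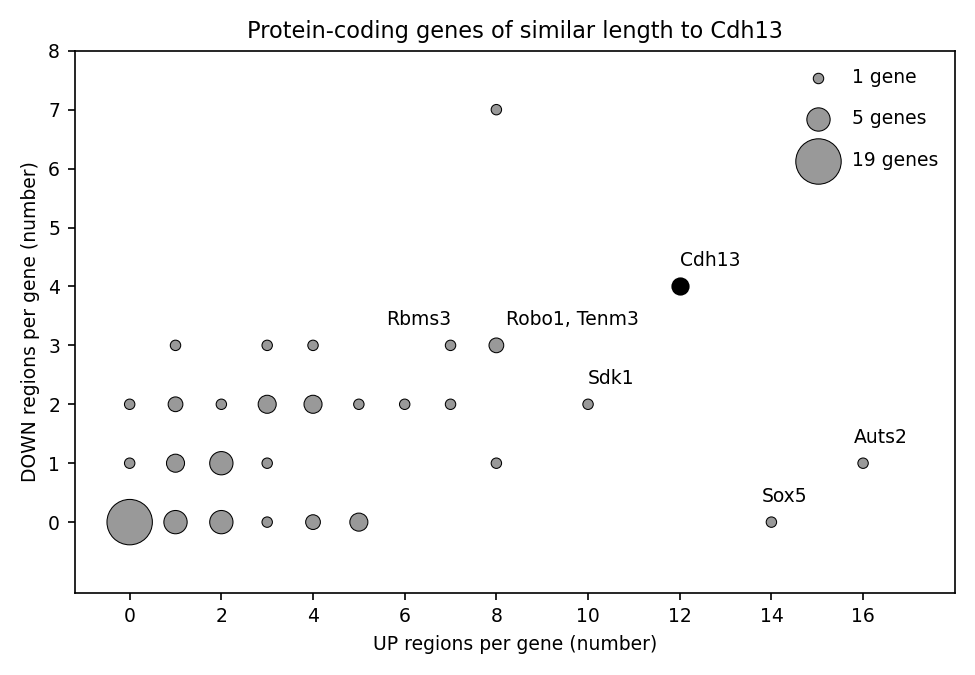
Number of UP (x axis) and DOWN (y axis) regions in each of 70 protein-coding genes of similar length to Cdh13 (889 to 1574 kb), with circle area giving the number of genes at a point. Cdh13 (black) has 12 UP and 4 DOWN regions, Auts2 and Sox5 have more UP but at most 1 DOWN region, and 19 genes have none.

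Cdh13 had rank 3 among these 70 genes by UP regions and rank 2 by DOWN regions, a place that its choice as a gene rich in both largely fixes. Above it by UP regions were Auts2 (16 UP and 1 DOWN), which encodes a nuclear protein linked to Polycomb complexes, and Sox5 (14 UP and 0 DOWN), which encodes a SoxD transcription factor. Next below it by DOWN regions were 6 genes tied at 3, Robo1, Tenm3, Rbms3, Etl4, Ntm and Ccser1. No other protein-coding gene of any length held as many as 12 UP together with 4 DOWN regions.

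The balance of directions in Cdh13 was close to that of other genes of its length, although 16 regions fix it only loosely. UP regions made up 75% of its 16 regions (95% exact Clopper-Pearson interval 47.6 to 92.7%, counting error only). Cdh13 was selected for holding many regions of both directions, so this share is a description. The interval treats regions as independent, although in 4 of 15 neighbouring pairs they lay under 10 kb apart. The share was 74.2% of 252 regions in the 69 other genes (68.3 to 79.5%), 71.2% of 684 regions on chromosome 8 and 68.1% over both lists. Numbers per length, on which the gene was selected, were 10.1 UP and 3.37 DOWN per Mb in Cdh13 and 2.40 and 0.836 per Mb over the other genes together.

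The spacing was also set beside that of these genes. Neighbouring regions shared their direction in 11 of 15 pairs of Cdh13 (73.3%) and in 124 of 202 pairs of the others (61.4%), which include genes with UP regions only. Gaps under 10 kb made up 26.7% of the pairs in Cdh13 and 9.90% in the others, most of which held far fewer regions. Among the 5 genes with counts nearest to those of Cdh13, such gaps were found in 4 of 13 pairs of Sox5, 2 of 11 of Sdk1 and 2 of 10 of Tenm3. Robo1, with 10 pairs, and Rbms3, with 9, had none. Auts2, which held the most regions of the 70 genes, had 1 in 16 pairs. Cdh13 was selected on its counts, and whether short gaps go with high counts per length was not tested. Among the 18 other genes with at least 5 regions and both directions, the widest gap took 9.84 to 60.5% of the span, with a median of 28.7%, so that the 24.2% of Cdh13 lay inside this range. The outermost regions were both DOWN in 2 of these 18 genes, both UP in 8 and of opposite direction in 8. At least 1 pair of opposite direction under 10 kb apart was found in 6 of them and not in Cdh13.

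Flanks without a DOWN region were also found at other genes of this length. The 500 kb flanks of the 69 other genes held 0 to 9 UP regions (median 2) and 0 to 4 DOWN regions (median 1), and 34 of them held no DOWN region. UP regions made up 72.4% of all regions in those flanks. In 17 of the 69, as in Cdh13, DOWN regions were more numerous in the gene than in its flanks.

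Of 226 other protein-coding genes of 500 kb or more, the 5 with counts nearest to those of Cdh13 were Sdk1, Tenm3, Robo1, Rbms3 and Sox5. Likeness was the sum of the differences in UP and in DOWN counts, with ties broken by length. Sdk1, a synaptic adhesion molecule of the immunoglobulin superfamily, held 10 UP and 2 DOWN regions, a summed difference of 4. Tenm3, a teneurin, and Robo1, a receptor for Slit guidance cues, each held 8 UP and 3 DOWN regions. Rbms3, which encodes an RNA-binding protein, held 7 and 3.

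The order of directions differed among these genes. In Rbms3 it was 1 DOWN, 6 UP, 1 DOWN, 1 UP and 1 DOWN, so that, as in Cdh13, the outermost regions were DOWN and the longest run was of UP regions next to the lowest one. In Robo1 the lowest region was DOWN and the highest was UP, and a gap of 617 kb, 60.5% of the span, held no region. In Sdk1 and Tenm3 the outermost regions were UP, and 1 pair of opposite direction in each was under 10 kb apart, at 2.36 and 7.74 kb. The 14 regions of Sox5 formed a single UP run. The 10 consecutive UP regions of Cdh13 were more than in any of these genes but Sox5. Auts2, of similar length but not among these 5, had a longer run, of 12 UP regions.

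**Figure D3:**
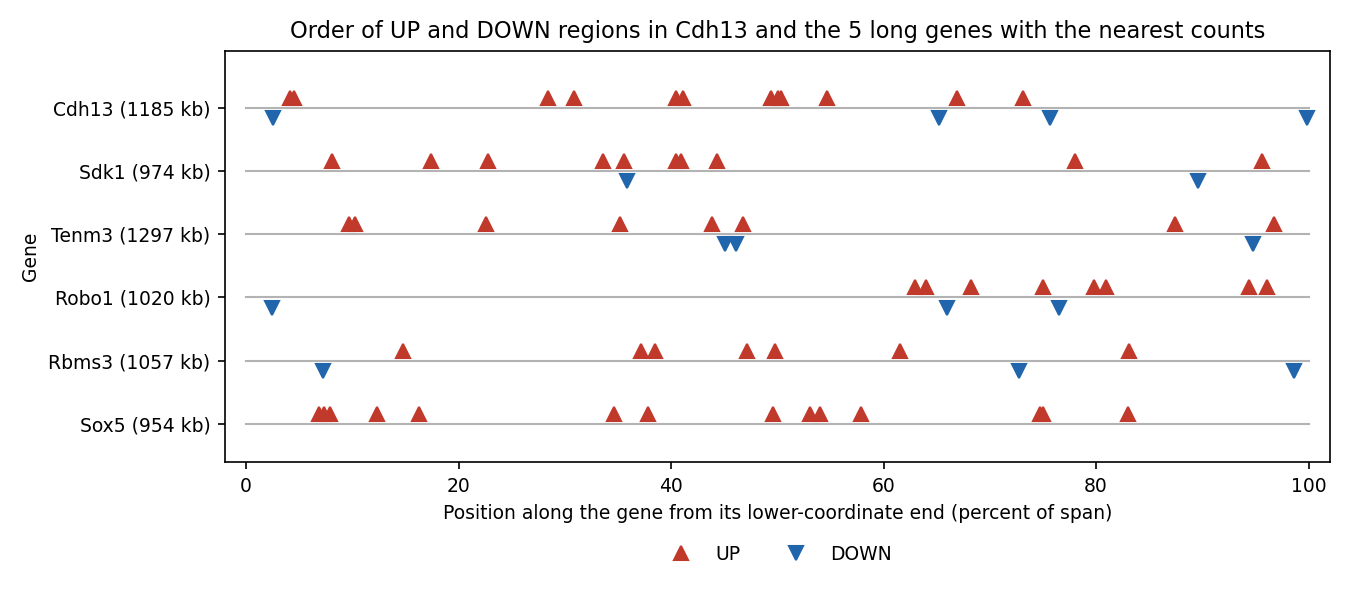
Positions of UP (red, above the line) and DOWN (blue, below) regions along Cdh13 and the 5 protein-coding genes of 500 kb or more with the nearest counts, as percent of the annotated span from its lower-coordinate end. Cdh13 and Rbms3 both begin and end with a DOWN region, whereas Sdk1, Tenm3 and Sox5 begin and end with UP.

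Regions were then counted in other genes of the cadherin superfamily, from a list of 42 that does not cover the whole family. Clustered protocadherins, the other protocadherins except Pcdh15, desmogleins and desmocollins were not in it. Of the 41 besides Cdh13, 14 held an UP region (the background is 15.3% of all protein-coding genes), 9 held a DOWN region (background 8.51%), 4 held both and 22 held none. Over all protein-coding genes, the share with a region rises with gene length. Of 5 listed genes of 500 kb or more, 2 held UP and 3 held DOWN regions, where 73.1% and 51.1% of all 227 protein-coding genes of that length did. Of 6 listed genes of 200 to 500 kb, 4 held UP and 2 DOWN regions, where the shares over all genes were 63.6% and 38.9%. Of 16 listed genes of 50 to 200 kb, 5 held UP and 4 DOWN regions, against 37.7% and 19.4% of all genes. Of 14 listed genes under 50 kb, 3 held UP and 0 DOWN regions, against 7.10% and 4.01%. Each class holds few cadherin genes, so these counts fix a share only loosely.

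The other listed cadherin genes held at most 6 regions each. Classical cadherins, which bind catenins, held few regions: Cdh2 (N-cadherin) held 1 UP and Cdh4 (R-cadherin) held 1 UP and 1 DOWN, while Cdh1, the E-cadherin of embryonic stem cells, held 0. The endothelial Cdh5, and Cdh6, Cdh7, Cdh8 and Cdh10, held 1 UP region each. Cdh18 held 1 of each direction in 929 kb, and Cdh22 held 1 DOWN. None of these genes thus held more than 2 regions, against the 16 of Cdh13, but all except Cdh18 are shorter than 500 kb. Cdh12, the listed cadherin gene nearest in length to Cdh13 at 1150 kb, held no region.

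Cdh23 and Pcdh15, whose products join to form the tip links of hair cells, both held regions of each direction. Cdh23 held 1 UP and 5 DOWN regions in 394 kb, with 2 of the DOWN regions at 97.2 and 97.9% of the span. Pcdh15, longer than Cdh13 at 1554 kb, held 3 UP and 2 DOWN. Cdhr3 held 3 DOWN regions in 59.1 kb. Of the giant cadherins, Fat4 held 2 UP, Fat2 and Dchs1 1 UP each and Fat3 1 DOWN. The planar polarity gene Celsr1 and the calsyntenin gene Clstn1 each held 1 DOWN region, and Ret, a receptor tyrosine kinase with cadherin-like repeats, held 2 UP.

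**Figure D4:**
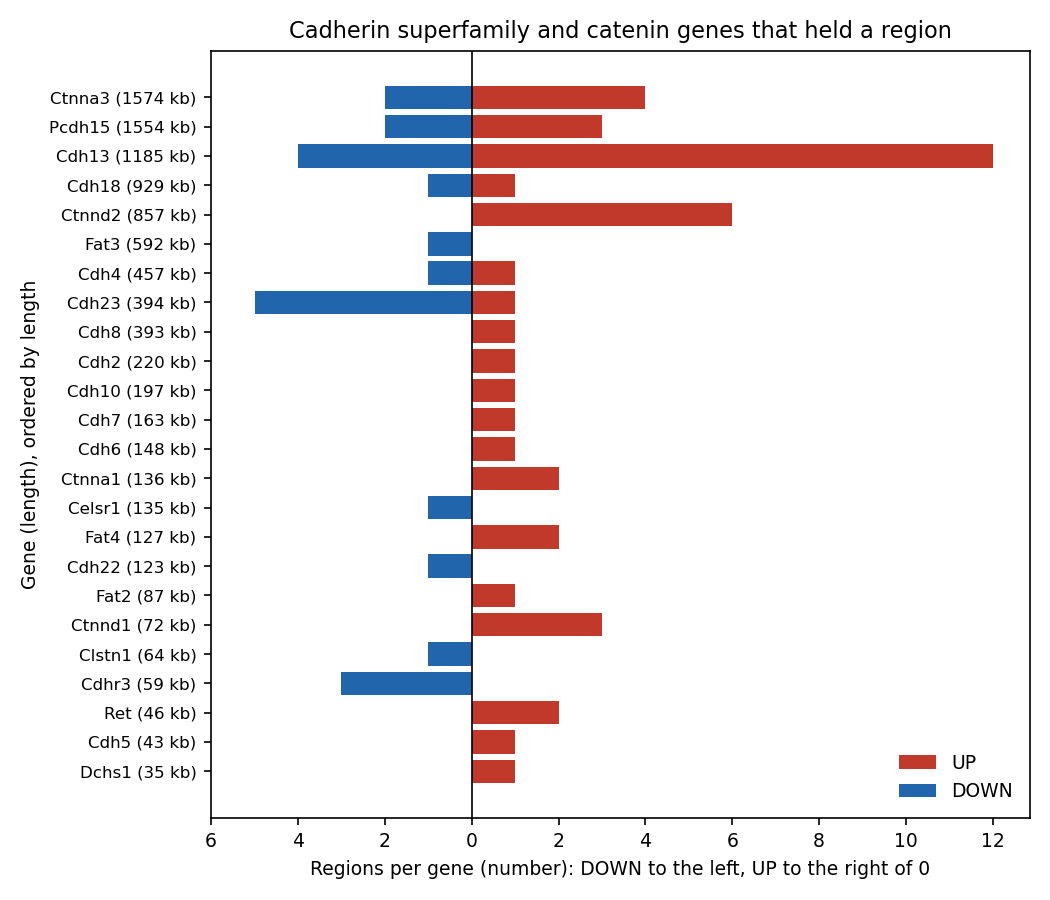
Number of UP (right of 0) and DOWN (left of 0) regions in each listed cadherin superfamily or catenin gene that held at least 1, ordered by length (kb, in brackets). Cdh13 has 12 UP and 4 DOWN regions, and Cdh23 with 5 DOWN regions is the one gene shown with more DOWN than Cdh13.

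Promoter windows were matched for 40 of the 54 symbols of the superfamily, its partners and the catenins, and 1 of 49 windows overlapped a region. Over the whole table, 166 of 32851 windows (0.505%) did. The 1 overlapping window was assigned to Fat2 and lies within an UP region of 577 bp at chr11:55311938-55312514. The annotated span of Fat2 is chr11:55250609-55337505, and the region's midpoint is at 70.9% of it from the lower coordinate. Window and region thus lie inside the gene, away from the upper-coordinate end where a minus-strand gene begins. The window is shown because it is the only matched promoter window of the listed cadherin genes that a region covers, with its 4 CG in capitals.
Fat2 (chr11:55312208-55312507, minus strand): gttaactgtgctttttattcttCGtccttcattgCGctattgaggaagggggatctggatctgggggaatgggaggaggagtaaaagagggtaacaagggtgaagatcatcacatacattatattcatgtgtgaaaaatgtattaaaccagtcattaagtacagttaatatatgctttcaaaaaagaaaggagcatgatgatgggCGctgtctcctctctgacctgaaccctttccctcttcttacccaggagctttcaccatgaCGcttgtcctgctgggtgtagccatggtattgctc
At least as many CG were found in 68.6% of all promoter windows.

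The listed partners of T-cadherin and the receptors of adiponectin held no region. The 5 genes counted were Adipoq, which encodes adiponectin, its receptors Adipor1 and Adipor2, the chaperone gene Hspa5 and the integrin-linked kinase gene Ilk. Of these, 4 are under 50 kb long, a class in which 7.10% of all protein-coding genes held an UP and 4.01% a DOWN region. Adipor2, at 64.6 kb, belongs to the class of 50 to 200 kb, with shares of 37.7% and 19.4%. Their absence from the lists does not show that 5-hydroxymethylcytosine was unchanged there.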

How the data were processed

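The authors deposited 2 lists of genomic regions, named for higher (UP) and lower (DOWN) CMS-IP signal in the knockout on mm10, with chromosome, start and end and no other value. Their names write the knockout as OgtiTKO, a spelling absent from the labels; it was taken to mean their Ogt iKO cells, and every UP and DOWN count rests on this reading. Bismark and MACS2 are named in the submitters' processing notes, with no role or version; thresholds, how replicates were combined and how inputs and spike-ins were used are not given in the sources used here. No column held values per sample, so leaving out replicates, replicate error and depth could not be computed.

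Coordinates are printed 1-based (starts in the lists were taken as 0-based). Spans of genes are those of a RefSeq table of GRCm38.p6, whose chromosomes are those of mm10; 402 of 49997 rows, on scaffolds, patches or the mitochondrial genome or with no chromosome, were left out. Distances are bases between features. No test was made: Cdh13 was chosen on these lists. Cdh13 and the gene lists were chosen with earlier results of these data known. Named genes were the 5 nearest in counts, the 3 of similar length with the most UP and the most DOWN regions, list members with a region, and flank genes that held or adjoined one; 1 gene that the rule selected and 1 of the listed partners are not reported here. Counting matched a direct search of the lists in 300 of 300 genes, and simulated regions placed in 200 genes were recovered in 200. Python 3.11.15, numpy 2.4.6, pandas 2.3.3, scipy 1.17.1 and matplotlib 3.10.9 were used. Alternatives were other spans, overlap in place of midpoints, width limits, merging within 10 kb, other length classes and other flanks.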

Additional observations from a re-analysis of the deposited data

How the results depend on the processing

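The 10 results recomputed included cadherin counts that pooled Cdh13, the other listed cadherin genes and the catenins (19 genes with UP and 11 with DOWN regions). Of 35 recomputed values, 33 stayed within 1.5 times the main count or rank, or within the interval of the share, and none reversed. Some could not move: no region of Cdh13 lay within 1 kb of the span's ends or across them, so an unextended span and any overlap gave the same regions. DOWN regions in Cdh13 fell from 4 to 1 when only regions at or above the median width were counted, since 3 of the 4 are narrower. DOWN regions in the flanks rose from 0 to 1.5 per Mb with flanks of 1 Mb, which take in 3 more distant regions. UP regions in the gene ranged from 8, with regions within 10 kb counted as 1, to 12. The UP share ranged from 73.3 to 90.9% over the settings in which it was recomputed. It was not recomputed with regions within 10 kb counted as 1, which gave 8 UP and 4 DOWN regions. No paired analysis was possible because both lists give positions only, with nothing per sample; leaving out a replicate was likewise not possible. With positions alone, how strongly any region changed, and whether regions in Cdh13 differ from those elsewhere in strength, cannot be said.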

Other observations

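Catenins, which link classical cadherins to actin and which T-cadherin does not bind, were a separate list of 7 genes. UP regions were found in 4 of them (15.3% of all protein-coding genes held one) and DOWN regions in 1 (8.51% of all). The p120-type catenin gene Ctnnd2 held 6 UP and 0 DOWN regions in 857 kb, the widest of them 2145 bp. Its relative Ctnnd1 held 3 UP regions of 864, 922 and 1129 bp in 71.9 kb. Among alpha-catenin genes, Ctnna3 held 4 UP and 2 DOWN regions in 1574 kb, Ctnna1 held 2 UP regions, and Ctnna2, at 1098 kb, held none, as did Ctnnb1, which encodes beta-catenin, and Jup, which encodes plakoglobin. Of all protein-coding genes of 500 kb or more, 73.1% held an UP and 51.1% a DOWN region, as did 2 and 1 of the 3 catenin genes of that length. From 50 to 200 kb, the shares were 37.7% and 19.4%, and 2 of 2 catenin genes held UP and 0 held DOWN regions.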
